A study of Mus musculus with 8 samples.

Results

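Chromatin accessibility at 7 genes for chemokine receptors, Ccr4, Ccr6, Ccr8, Cxcr3, Cxcr4, Cxcr5 and Cxcr6, was described in 8 ATAC-seq libraries of mouse CD4 T cells. ATAC-seq inserts sequencing adapters into open DNA with a transposase, so a peak marks a stretch of accessible chromatin. The members were the regions with a deposited peak that overlapped the RefSeq body of 1 of the 7 genes (GRCm38, mm10) extended by 20 kb on both sides. They numbered 97 of 175276 regions in all, where a region is a merge of peaks of the 8 lists that overlap by at least 1 bp.

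All cells were naive CD4 T cells sorted from spleen, activated through CD3 (0.25 µg/mL antibody) and CD28 (1 µg/mL antibody) with 20 ng/mL TGF-β, and harvested after 48 h at 90000 cells per sample. The groups were Tet1/3 cDKO plus IL-2 (100 U), Tet1/3 cDKO without added IL-2, control plus IL-2 and control without added IL-2, with 2 libraries each. The name cDKO is read here as a conditional double knockout of Tet1 and Tet3, genes for dioxygenases that convert 5-methylcytosine in DNA, and the controls are labelled wild type. Neither the Cre driver nor the deleted exons, the age or the source animals of each library are given in the labels, so the p-values below reflect how these libraries varied, which may be technical variation. The groups address 2 questions, what Tet1/3 loss does to accessible chromatin under TGF-β and what added IL-2 does in each genotype, and no group lacked TGF-β or activation. Peaks do not show whether exons were deleted, so the knockout labels were not checked here.

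Chemokine receptors are G protein-coupled receptors of the cell surface that steer migrating cells up gradients of chemokines, and T cells switch on different receptors as they differentiate. Ccr4 binds CCL17 and CCL22 and is found on Th2 cells, regulatory T cells and skin-homing T cells, and Ccr8 is found on regulatory T cells and Th2 cells. Ccr6 binds CCL20 and is a receptor of Th17 cells, Cxcr3 binds CXCL9, CXCL10 and CXCL11 and is a receptor of Th1 cells, and Cxcr5 binds CXCL13 and guides follicular helper T cells and B cells into follicles. Cxcr6 binds CXCL16 and is found on activated and tissue-resident T cells, while Cxcr4 binds CXCL12 and is carried by T cells at most stages.

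Accessibility at the starts of these genes ranged from among the strongest peaks of a library to the weak end of its list. Promoter sequences from RefSeq (GRCm38.p6, 250 bases before the start and 50 after it) matched 6 of the 7 genes and gave 7 promoters, with 2 for Ccr6. The 5 below are shown because they hold the strongest peak (Cxcr6), the weakest one listed in all 8 libraries (Cxcr3), the promoter richest in CG among these genes (Cxcr4), and the pair of Ccr6 starts that differed in accessibility, of which the upstream one was weakest of all by median rank. All are written 5′ to 3′ on the strand of the gene, and capitals mark matches to 12 short motifs searched on both strands.
Cxcr6, chr9:123806227-123806526, plus strand: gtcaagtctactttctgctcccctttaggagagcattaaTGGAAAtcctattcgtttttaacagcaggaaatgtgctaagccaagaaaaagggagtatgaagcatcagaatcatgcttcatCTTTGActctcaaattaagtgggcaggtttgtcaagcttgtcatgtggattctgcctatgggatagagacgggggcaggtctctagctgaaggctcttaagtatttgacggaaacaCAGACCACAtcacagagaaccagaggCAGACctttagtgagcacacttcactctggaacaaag
Cxcr4, chr1:128592250-128592549, minus strand: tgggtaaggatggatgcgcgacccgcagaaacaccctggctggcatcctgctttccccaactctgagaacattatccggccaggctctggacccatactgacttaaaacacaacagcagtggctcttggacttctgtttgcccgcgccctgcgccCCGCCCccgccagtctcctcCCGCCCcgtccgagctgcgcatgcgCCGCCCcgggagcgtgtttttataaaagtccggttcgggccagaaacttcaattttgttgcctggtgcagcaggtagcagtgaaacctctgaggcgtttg
Ccr6 downstream start, chr17:8242276-8242575, plus strand: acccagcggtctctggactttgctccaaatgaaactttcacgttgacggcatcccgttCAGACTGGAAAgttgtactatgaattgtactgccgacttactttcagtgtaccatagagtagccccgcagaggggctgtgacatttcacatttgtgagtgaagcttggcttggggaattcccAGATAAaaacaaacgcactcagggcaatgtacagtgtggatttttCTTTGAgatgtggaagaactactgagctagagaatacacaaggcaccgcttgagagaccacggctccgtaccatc
Ccr6 upstream start, chr17:8235793-8236092, plus strand: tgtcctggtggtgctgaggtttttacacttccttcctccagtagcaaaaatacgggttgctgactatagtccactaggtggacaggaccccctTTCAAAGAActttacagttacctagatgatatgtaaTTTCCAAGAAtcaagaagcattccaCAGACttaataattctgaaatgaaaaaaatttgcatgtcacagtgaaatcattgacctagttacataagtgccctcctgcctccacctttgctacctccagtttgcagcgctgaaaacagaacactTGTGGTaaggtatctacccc
Cxcr3, chrX:101734098-101734397, minus strand: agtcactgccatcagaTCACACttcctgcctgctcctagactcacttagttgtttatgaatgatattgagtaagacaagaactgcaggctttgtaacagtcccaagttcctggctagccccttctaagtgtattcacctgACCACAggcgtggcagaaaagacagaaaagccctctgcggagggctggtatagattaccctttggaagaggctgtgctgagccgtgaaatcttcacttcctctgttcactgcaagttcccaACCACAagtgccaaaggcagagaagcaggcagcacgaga

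The AP-1 motif was searched as TGANTCA, the ETS motif as CGGAAG, the RUNX motif as TGTGGT and the STAT motif as TTCNNNGAA. The TCF motif was searched as CTTTGA, the T-box motif as GTGTGA, the GATA motif as AGATAA and the forkhead motif as TGTTTAC. The NFAT motif was searched as TGGAAA, the SMAD motif as GTCTG, the KLF/SP motif as GGGCGG and the E-box motif as CACGTG. Cxcr6 held a RUNX match at positions -10 to -5 from the start that shares bases with a SMAD match at -13 to -9, plus 1 TCF, 1 NFAT and 1 further SMAD match. Cxcr4 held 3 KLF/SP matches and no other. Cxcr3 held 2 RUNX matches and 1 T-box match. The upstream Ccr6 promoter held 2 STAT matches, each overlapping another motif (TCF in one, NFAT in the other), with 1 RUNX and 1 SMAD match, and the downstream one held 1 match each to TCF, GATA, NFAT and SMAD. Of 32851 promoters in the table, 16.8% held a RUNX match, 49.6% a SMAD match, 35.7% a KLF/SP match, 8.3% a STAT match, 14.5% a T-box match, 16% a TCF match, 21.4% an NFAT match and 11.2% a GATA match. AP-1 (7.81% of promoters) was matched in Ccr4 alone of the 7 promoters, and ETS (16.9%), forkhead (3.65%) and E-box (7.15%) in none. Such matches are letters in a window and were not tested as binding sites.

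CG dinucleotides, the main sites of DNA methylation and so the substrate that Tet enzymes act on once methylated, numbered 20 in the Cxcr4 promoter and 10 in the downstream Ccr6 promoter. The other 5 promoters held 2 to 4, against a median of 7 over all promoters. Fewer CG were found in 73.5% of all promoters than at Cxcr4, and in 14.1% than at Ccr8 or the upstream Ccr6 start, which held 2 each. The Cxcr4 promoter was 59.3% G and C and the Cxcr6 promoter 44.3%.

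Peaks were ranked within each library by the authors' −log10 p, so that rank 1 is the strongest. The deposited lists held 65811 to 145979 peaks, and the strongest 65811 of each library, an equal-number list, were used for comparisons. The shortest was that of control plus IL-2 replicate 2, whose full and equal-number lists are the same. The weakest peak of the equal-number list had a −log10 p of 3.25 there and 13.5 in control without IL-2 replicate 1. A region counts as listed when a peak of that list lies in it. A rank past 65811 is a position in that library's longer deposited list, and lists differ in length there, so such ranks show only that the peak was outside the equal-number list. All ranks are given as a description, with no test. Read depth is unknown.

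The Cxcr6 start carried the strongest peak of the 7 loci in every library. Its region (chromosome 9, 123806283 to 123806723) ranked 1975 and 704 in cDKO plus IL-2, 754 and 913 in cDKO without IL-2, 997 and 2033 in control plus IL-2, and 281 and 157 in control without IL-2. Every library thus placed it near the top of its 65811 peaks, and cDKO and control overlapped. The authors' fold over background at its summit was 16.7 to 19.7, and the summit lay at -15 to 32 bases from the start in the 8 libraries. Among 21263 promoters of protein-coding genes, 2.46% had a smaller (stronger) median rank. Cxcr6 lies wholly within the body of Fyco1 (chromosome 9, 123789500 to 123851899), so that its start region lies in Fyco1 as well.

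Ccr8 and Ccr4 followed. The Ccr8 start region ranked 6313 and 8608 in cDKO plus IL-2, 8123 and 8276 in cDKO without IL-2, 11178 and 4814 in control plus IL-2, and 9749 and 5055 in control without IL-2. The Ccr4 start region ranked 16531 and 16481 in cDKO plus IL-2, 11580 and 7392 in cDKO without IL-2, 15085 and 11250 in control plus IL-2, and 13712 and 9443 in control without IL-2. Their ranges overlapped each other, and at both genes cDKO overlapped control. Summits lay at -133 to -82 bases from the Ccr8 start and at -133 to -10 bases from the Ccr4 start. The Ccr4 start used here (114496544, minus strand) lies inside the RefSeq body, which runs on to 114505476. Distances at Ccr4 are from that start, and the far end of the body was not described as a start.

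Ccr6 has 2 annotated starts in the table, and the downstream one was the more accessible in all 8 libraries. The region at the downstream start ranked 12708 to 24666, and the region at the upstream start ranked 45656 to 72269 and fell outside the equal-number list of control plus IL-2 replicate 1. The summit at the downstream start lay at -115 to -47 bases from it. The Cxcr4 start region spanned 2084 bp and ranked 16441 to 25582, which overlapped the downstream Ccr6 start. It held 2 peaks in 7 of 8 libraries and 1 in control without IL-2 replicate 2. Its strongest summit lay at -380 to -345 bases from the start in 4 libraries and at 944 to 1053 bases in the other 4, with 2 libraries of each genotype in either set. In control it lay at -379 and -380 without IL-2 and at 945 and 1053 with it. In cDKO it split by replicate number, at 944 and 946 in replicate 1 and at -372 and -345 in replicate 2.

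Cxcr3 was near the low end, with a median rank of 44650 against 49034.5 at the upstream Ccr6 start. Its start region was listed in all 8 libraries, at ranks 38913 and 40869 in cDKO plus IL-2, 37023 and 49689 in cDKO without IL-2, 48431 and 49192 in control plus IL-2, and 51200 and 33438 in control without IL-2. The ranks overlapped those of the upstream Ccr6 start and of no other start. Of promoters that overlapped a region listed in all 8 libraries, 98.7% had a smaller median rank than Cxcr3. Such a region was overlapped by 50.8% of all promoters.

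**Figure D1:**
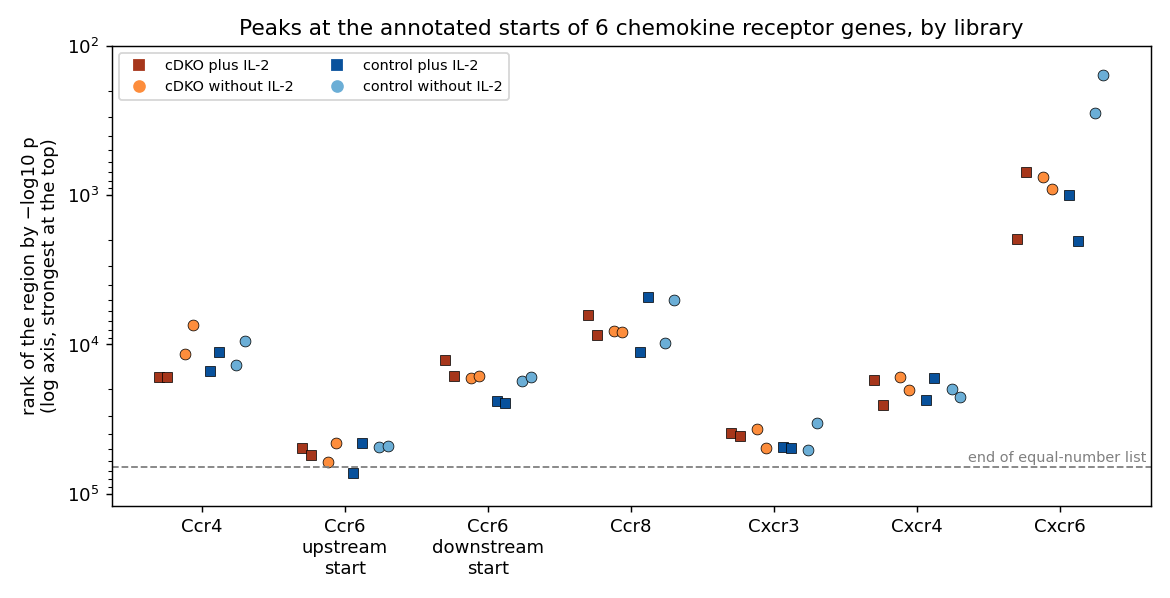
Rank (log axis, strongest at the top) of the region at each annotated start, with 1 point per library and the 4 groups side by side. The Cxcr6 points lie between 157 and 2033, apart from those of every other start, and the upstream Ccr6 start and Cxcr3 lie lowest.

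Cxcr5 was described by its gene body (chromosome 9, 44511787 to 44526444). The region over its end of higher coordinate ranked 8635 and 15199 in cDKO plus IL-2, 10389 and 16113 in cDKO without IL-2, 6735 and 8653 in control plus IL-2, and 7176 and 10940 in control without IL-2. The strongest region of the locus lay 6.43 kb beyond that end (44532874 to 44533814). It ranked 2595 and 6614 in cDKO plus IL-2, 1958 and 1764 in cDKO without IL-2, 8145 and 9142 in control plus IL-2, and 4304 and 2652 in control without IL-2. The median was 2276.5 over cDKO and 6224.5 over control libraries, but the ranges overlapped. It was 7379.5 over libraries with IL-2 and 2305 over those without. These ranges overlapped over both genotypes, though not within either one. The share of all regions with that order was not computed. Cxcr5 had the most regions open in every library, with 8 of the 10 that at least 4 libraries listed. The neighbouring gene Bcl9l (chromosome 9, 44482738 to 44511906) overlaps the other end of Cxcr5 and holds 2 of these 8 (44494244 to 44494605 and 44509800 to 44511035).

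At other members, too, the strongest region was often not at the start. In Ccr6 it lay inside the gene, 15.8 kb downstream of the upstream start (chromosome 17, 8251600 to 8252178), and ranked 3321 and 1691 in cDKO plus IL-2, 4591 and 4486 in cDKO without IL-2, 2081 and 6575 in control plus IL-2, and 3973 and 3681 in control without IL-2. In Ccr8 it lay 17.5 kb upstream of the start (median rank 5298.5). The next, 18.5 kb downstream, overlaps the edge of lower coordinate of the neighbouring Slc25a38 (chromosome 9, 120110377 to 120126093). In Cxcr4 it lay 19.8 kb upstream (median rank 9621). In Ccr4, Cxcr3 and Cxcr6 the start region was the strongest by median rank, and in every library only at Cxcr6. At Ccr4 the median was 12646, against 14399 for a region 8.48 kb downstream. That region ranked ahead of the start in every library with IL-2 (5504 to 14832). A region 11.1 kb upstream ranked ahead of the start in cDKO plus IL-2 (12767 and 14588) and in control plus IL-2 replicate 1 (7966). It also did so in control without IL-2 replicate 1 (11289). At Cxcr3 a region 3.84 kb downstream ranked 29486 in control plus IL-2 replicate 1, against 48431 at the start.

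**Figure D2:**
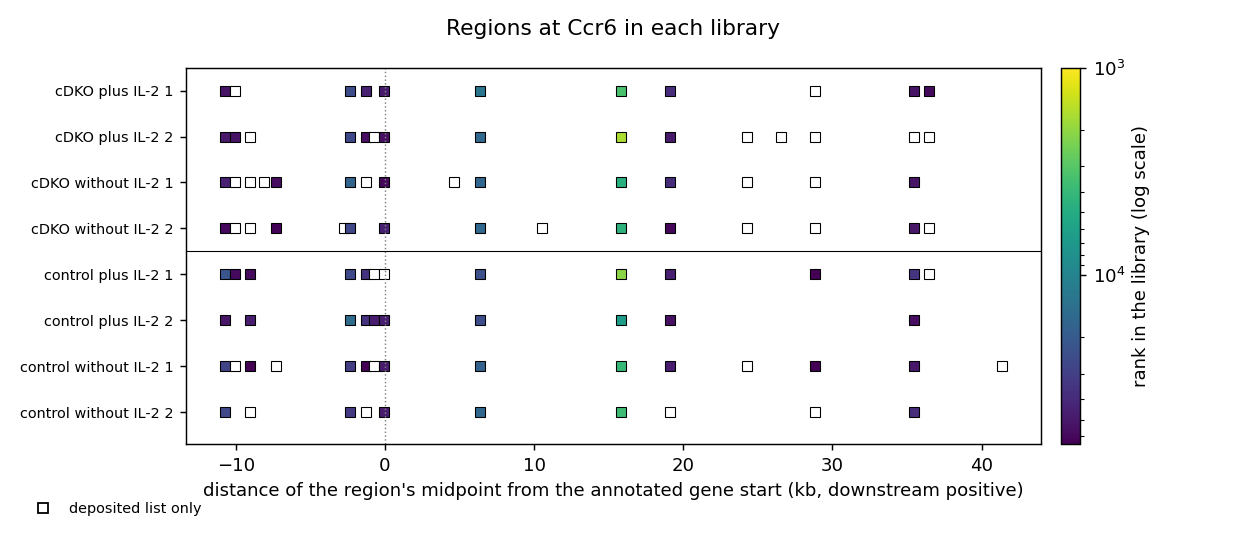
Regions at Ccr6 by distance of their midpoint from the upstream start (kb), with 1 row per library and the colour giving the rank (log scale), while open squares are regions that only the full deposited list holds. The region 15.8 kb downstream is the strongest in every library, and the region 6.38 kb downstream marks the second start.

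The number of listed regions varied little between libraries. The 7 loci together held 50 and 52 regions in cDKO plus IL-2, 49 and 49 in cDKO without IL-2, 49 and 50 in control plus IL-2, and 49 and 47 in control without IL-2. Of the 97 regions, 70 were in at least 1 equal-number list, 48 in at least 4 and 33 in all 8. Those 33 made up 68.8% of the 48, against 63.0% over all regions of the series. The share was 85.7% at Cxcr4 (6 of 7), 83.3% at Ccr8 (5 of 6) and 80.0% at Cxcr5 (8 of 10), and 63.6% at Ccr4 (7 of 11), with 50.0% at Ccr6 (4 of 8), Cxcr6 (2 of 4) and Cxcr3 (1 of 2).

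T cell identity was checked on the bodies of marker genes, in ranges over the 8 equal-number lists. Cd3e held 2 regions in every library, and Cd3d 1 or 2. Cd4 held 4 and 4 in cDKO plus IL-2, 3 and 4 in cDKO without IL-2, 2 and 2 in control plus IL-2, and 4 and 2 in control without IL-2. Cd28 held 4 and 7 in cDKO plus IL-2, 4 and 4 in cDKO without IL-2, 9 and 8 in control plus IL-2, and 6 and 8 in control without IL-2. For both genes the genotypes overlapped, with Cd28 numbers mostly smaller and Cd4 numbers mostly larger in cDKO. Ms4a1 of B cells, Lyz2 of myeloid cells and Ncr1 of NK cells held 0 in every library. Other markers of those cell types did hold regions (Pax5 3 to 5, Itgam 3 to 5, Klrb1c 1, Csf1r 0 to 2, Cd14 0 or 1), as did Cd8b1 (1) and Cd8a (0 or 1) of CD8 T cells. At least 4 libraries listed 6 regions within 20 kb of those CD8 genes. Of these, 1 near Cd8b1 was present in all 4 cDKO and no control lists and 1 near Cd8a in all 4 control and no cDKO lists. Over all such regions of the series, 1.05% had the first pattern and 1.66% the second, and single regions carry no test. The listed peaks ranked 54400 to 64235 near Cd8b1 and 54424 to 65394 near Cd8a, towards the weak end of the equal-number lists. Each region was in 7 full deposited lists, so both genotypes had peaks there. Cd79a of B cells held 1 in every cDKO and 2 in every control library. Within 20 kb it had 7 in every cDKO and 8 in every control library. Fewer regions in every cDKO library were found for 1.72% of all genes. Near Cd79a, 1 region was in all 4 control and no cDKO lists, 1 of 18 (5.56%) at B cell markers, against 1.66% of all regions. Its listed peaks ranked 34309 to 56969, and all 8 full deposited lists held it. The part of these marker differences in the results was not tested. Summed within 20 kb, the 4 myeloid markers had 17 to 22 regions in cDKO and 15 to 18 in control. A smaller share of cells with an open region and less opening per cell cannot be told apart in bulk samples.

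Genotype was compared first by presence, with a region called higher when all 4 cDKO equal-number lists held it and no control list did, and lower in the reverse case. Of the 48 regions at the 7 genes that at least 4 libraries listed, 1 was higher and 0 were lower in cDKO. Over all 64597 such regions of the series, 1.05% were higher and 1.66% lower, so that the count at these genes was near the background.

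The 1 region lay 16 kb upstream of Cxcr4 (chromosome 1, 128608085 to 128608497). It ranked 42333 and 54953 in cDKO plus IL-2 and 47688 and 48346 in cDKO without IL-2. Among control libraries, replicate 1 plus IL-2 held it at rank 89178 and replicate 1 without IL-2 at 92240, both only in the longer deposited list, and neither replicate 2 listed it. The list of control plus IL-2 replicate 2 ended at 65811 and could not hold a peak at such ranks. That of control without IL-2 replicate 2 ended at 92488. No control peak was in an equal-number list, and every cDKO peak was past rank 32905, the midpoint of the equal-number list. Leaving out 1 library from these lists only loosens the rule, so the call could not be lost that way and its staying says nothing of stability. It was lost with lists of 32905 peaks, in which no library had it, with full deposited lists (4 cDKO and 2 control libraries), and where peaks had to cover 50% of the region. It was also lost without control plus IL-2 replicate 2 when lists took the next shortest length (92488 peaks), a setting chosen after seeing the data, and 1 region near Ccr4 was called higher instead. Without cDKO plus IL-2 replicate 1 there were 3 regions higher, the others being 1 each at Ccr8 and Cxcr6. Without control without IL-2 replicate 2 there was 1 lower, at Ccr6.

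With full deposited lists, which differ in length, 0 regions were higher and 1 lower, just inside Ccr8 (chromosome 9, 120092515 to 120092802), 0.53 kb downstream of its start. No cDKO list of any length held it. It ranked 110303 and 61826 in control plus IL-2 and 99128 and 82149 in control without IL-2, so only 1 of these peaks was in an equal-number list.

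**Figure D3:**
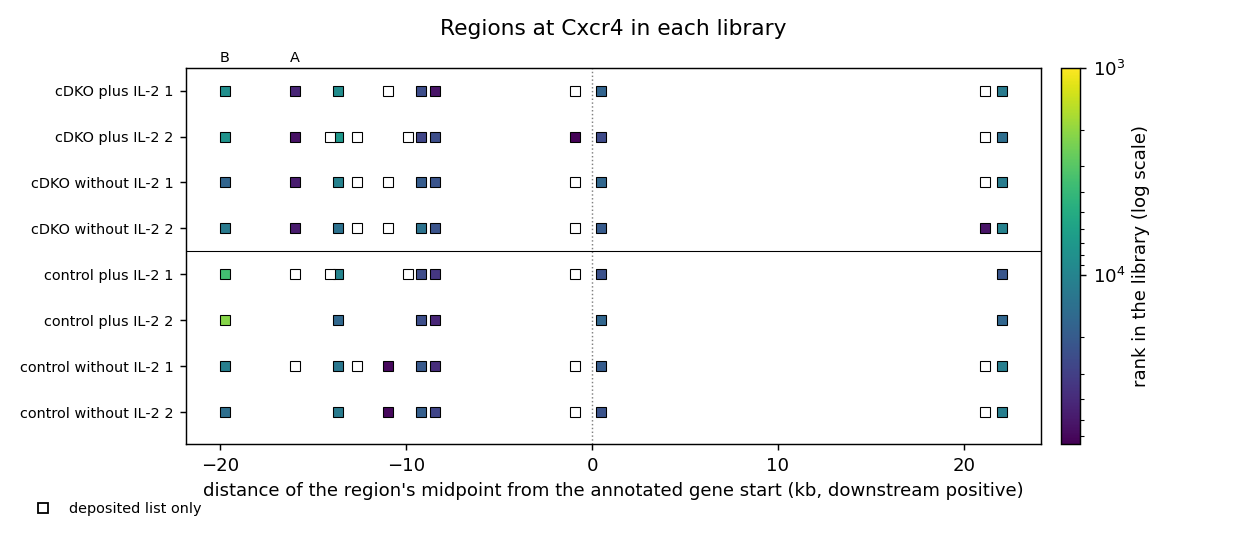
Regions at Cxcr4 by distance of their midpoint from the start (kb), with 1 row per library, colour giving the rank (log scale) and open squares for regions that only the full deposited list holds. A marks the region 16 kb upstream that the 4 cDKO equal-number lists held and no control one did, and B the region 19.8 kb upstream with stronger ranks in the 4 libraries with IL-2.

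The number of regions per gene gave no genotype call. Cxcr6 averaged 4.75 ± 0.5 regions in cDKO and 3.5 ± 0.577 in control (SD, n = 4 each), with 4 and 5 in cDKO plus IL-2, 5 and 5 in cDKO without IL-2, 3 and 3 in control plus IL-2, and 4 and 4 in control without IL-2. The groups met at 4 regions (exact permutation test, 2-sided, p = 0.0857, adjusted p = 1 over 18120 genes). Without cDKO plus IL-2 replicate 1 the groups no longer met (difference 1.5, adjusted p = 0.675, exact permutation), and without control plus IL-2 replicate 2, with lists at the next shortest length, the difference was -0.0833. Cxcr4 averaged 7.5 ± 0.577 regions in cDKO and 6.5 ± 0.577 in control (SD, n = 4 each, exact permutation p = 0.171, adjusted p = 1). At Ccr4, Ccr6, Ccr8, Cxcr3 and Cxcr5 the mean difference, cDKO minus control, was -0.75 to 0.5 regions (exact permutation p = 0.657 to 1, adjusted p = 1). Without control without IL-2 replicate 2, the Ccr6 difference was -1.75 and its numbers no longer overlapped. With all libraries 0 of 7 members had non-overlapping numbers, where 1.76% of all genes had more and 1.72% fewer regions in every cDKO library than in any control library. The smallest p that 4 against 4 libraries allow is 0.0286, and 0 of 18120 genes passed an adjusted p of 0.05, with 631 (3.48%) at an unadjusted p under 0.05. The correction could pass a gene only if 10355 genes were at the smallest p.

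Among the 33 regions listed in all 8 libraries, the ranks of cDKO and control overlapped in all but 1. That region, 17.5 kb upstream of Ccr8 (chromosome 9, 120074281 to 120074918), ranked 8353 and 6027 in cDKO plus IL-2, 5887 and 5649 in cDKO without IL-2, 2435 and 3375 in control plus IL-2, and 1660 and 4948 in control without IL-2. It was thus weaker in every cDKO library than in any control library, as were 5.72% of all such regions, while 0 of 33 were stronger against 6.15%. The 1 of 33 is 3.03%, below the 5.72% of all regions. This region is named because its values stood apart.

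Added IL-2 gave no region call at the 7 genes over both genotypes, with 0 of 48 higher and 0 lower, against 0.517% and 0.341% of all regions. Without control without IL-2 replicate 1, 1 region at Ccr6 was higher. Without replicate 2 of that group, 1 at Ccr4 was higher and 1 near Cxcr5 lower.

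Ccr4 had more listed regions with IL-2 in every library. It held 12 and 11 in cDKO plus IL-2 and 11 and 11 in control plus IL-2, against 10 and 9 in cDKO without IL-2 and 10 and 10 in control without IL-2. The means were 11.25 ± 0.5 with IL-2 and 9.75 ± 0.5 without it (SD, n = 4 each, exact permutation p = 0.0286, the smallest possible, adjusted p = 1 over 18120 genes). The sides did not overlap. An adjusted p of 0.05 would need 10355 genes at this smallest p, so the failed correction was fixed by the number of libraries and genes. Numbers higher in every library with IL-2 than in any without were found for 0.723% of genes, and lower ones for 0.552%. With full deposited lists the direction turned, to a difference of -0.75 regions (exact permutation p = 0.629). With lists of 32905 peaks it was 0, as it was without control plus IL-2 replicate 2 when lists took the next shortest length.

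The regions listed in cDKO with IL-2 and not in cDKO without it included 2 weak ones on the downstream side of Ccr4. A region 19.9 kb downstream of the start (chromosome 9, 114476376 to 114476938) ranked 50684 and 40648 in cDKO plus IL-2 and 45160 and 33018 in control plus IL-2. In cDKO without IL-2 it ranked 82205 and 70025, below the equal-number list, and in control without IL-2 25631 and 52881. A region 9.57 kb downstream (114486819 to 114487133) ranked 58461 and 54622 in cDKO plus IL-2, 57335 and 36132 in control plus IL-2, 90584 and 76550 in cDKO without IL-2, and 97885 and 38495 in control without IL-2. Both were listed in both cDKO libraries with IL-2 and in neither without it, and control libraries without IL-2 differed between replicates only at the nearer one. The genes Glb1 and Trim71 also reach into the 20 kb on either side of Ccr4.

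**Figure D4:**
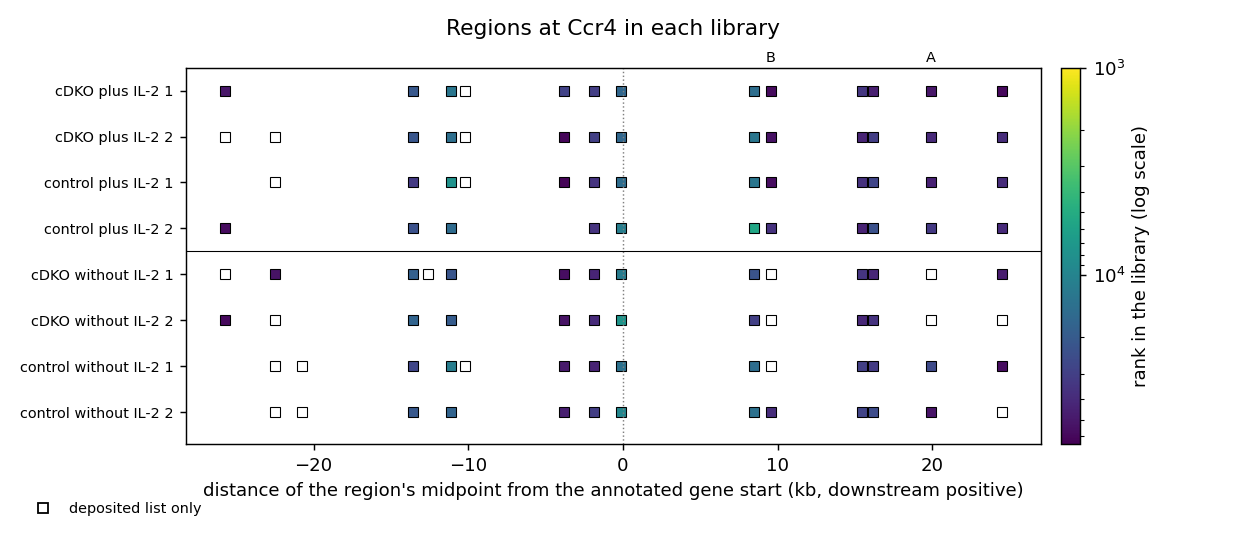
Regions at Ccr4 by distance of their midpoint from the start (kb), with the 4 libraries with IL-2 above those without, colour giving the rank (log scale) and open squares for regions that only the full deposited list holds. A and B mark the regions 19.9 and 9.57 kb downstream that both cDKO libraries listed with IL-2 and neither did without it.

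The other 6 genes had overlapping region numbers with and without IL-2. Cxcr5 averaged 10 regions in each of the 4 libraries with IL-2 and 11 ± 0.816 without it (SD, n = 4, exact permutation p = 0.143, adjusted p = 1). For Ccr6, Ccr8, Cxcr3, Cxcr4 and Cxcr6 the mean difference, with minus without IL-2, was -0.75 to 1.25 regions (exact permutation p = 0.286 to 1, adjusted p = 1). Of 18120 genes, 0 passed an adjusted p of 0.05 and 231 (1.27%) had an unadjusted p under 0.05. Without cDKO without IL-2 replicate 2, Cxcr5 numbers did not overlap either (difference -1.33, adjusted p = 1, exact permutation).

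**Figure D5:**
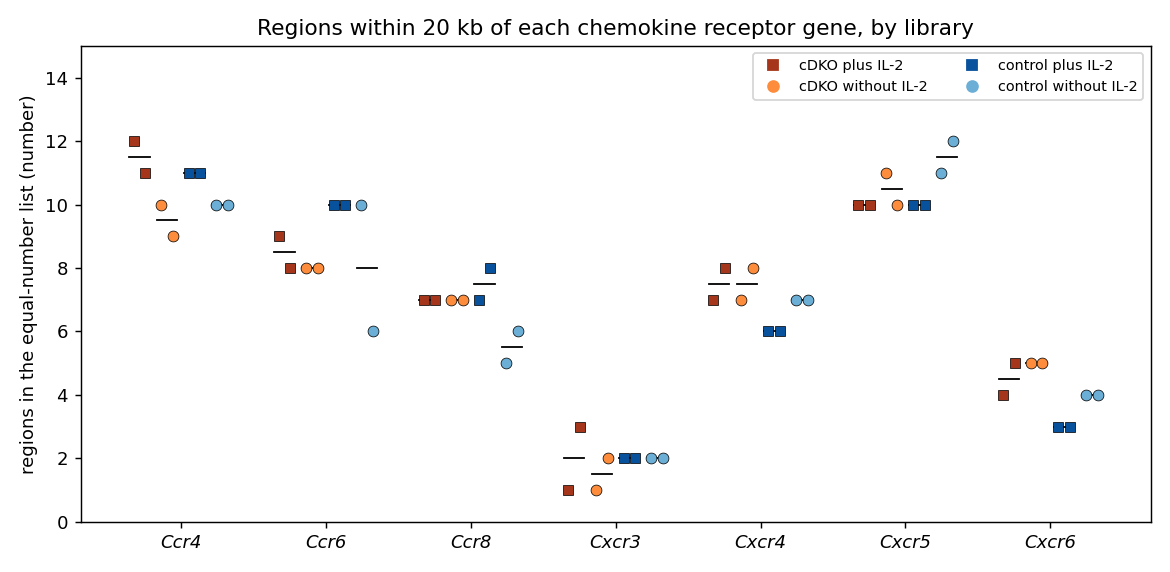
Number of regions in the equal-number list within 20 kb of each gene, with 1 point per library and a bar at the mean of each group of 2. Ccr4 has 11 or 12 regions with IL-2 and 9 or 10 without, and Cxcr6 has 4 or 5 in cDKO and 3 or 4 in control.

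Of the regions listed in all 8 libraries, 3, all at Cxcr4, had ranks that did not overlap between libraries with and without IL-2. The strongest, 19.8 kb upstream (chromosome 1, 128611808 to 128612300), ranked 8352 and 7680 in cDKO plus IL-2 and 3545 and 2123 in control plus IL-2, against 17127 and 11897 in cDKO without IL-2 and 10890 and 14605 in control without IL-2. It was stronger with IL-2 in every library, with medians of 5612.5 with IL-2 and 13251 without. A region 22.0 kb downstream of the start (128569916 to 128570609) went the other way, with 11652 and 14654 in cDKO plus IL-2 and 21362 and 16758 in control plus IL-2, against 11560 and 10350 in cDKO without IL-2 and 11119 and 11070 in control without IL-2. A region 9.2 kb upstream (128601304 to 128601697) was weaker too, at 24389 to 27537 with IL-2 and 13627 to 20850 without. Of the 33 regions 1 was thus stronger (3.03%) and 2 weaker (6.06%), where 2.77% of all regions were stronger and 3.01% weaker. Cxcr4 encodes the receptor for CXCL12, and its start region ranked 16791 to 25582 with IL-2 and 16441 to 22463 without, which overlapped. These 3 regions are named because their values stood apart.

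Within each arm, 2 libraries against 2 cannot reach a p of 0.05, and the arms are described by counts. Without IL-2, 4 of 49 regions were higher and 2 lower in cDKO, which are 8.16% and 4.08%, against 5.4% and 5.86% of all regions. The higher ones were the Cxcr4 region 16 kb upstream, a region 7.91 kb downstream of the Ccr8 start (chromosome 9, 120099951 to 120100126), a region 0.186 kb outside Cxcr6 (chromosome 9, 123811940 to 123812254) and a region 7.27 kb upstream of Ccr6 (chromosome 17, 8228631 to 8228908). The Ccr8 region ranked 45323 and 47141 in cDKO without IL-2, and in control without IL-2 replicate 2 held it at 88495 and replicate 1 not at all. The Cxcr6 region ranked 58126 and 56197 in cDKO without IL-2 and 67963 and 70287 in control without IL-2, so the limit of the equal-number list falls between close ranks there. The Ccr6 region ranked 56880 and 64143 in cDKO without IL-2, and control without IL-2 held it in replicate 1 only, at 91654. The lower ones were the Ccr4 region 19.9 kb downstream and a region 11.0 kb upstream of Cxcr4 (chromosome 1, 128603162 to 128603346), at 69642 and 101584 in cDKO without IL-2 and 60393 and 60256 in control without IL-2.

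With IL-2, 1 of 52 regions was higher in cDKO, the Cxcr4 region 16 kb upstream, and 1 lower, against 5.1% and 5.62% of all regions. The lower one lay 9.07 kb upstream of Ccr6 (chromosome 17, 8226831 to 8227117). Replicate 2 of cDKO plus IL-2 held it at 100350 and replicate 1 not at all, against 58710 and 48166 in control plus IL-2. The shares at these genes were 1.92% each way.

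In cDKO cells IL-2 gave 3 higher and 2 lower of 53 regions (5.66% and 3.77%, against 3.97% and 4.19% of all regions). The higher ones were the pair at Ccr4 and a region 1.29 kb upstream of Ccr6 (chromosome 17, 8234422 to 8235080), at 44452 and 56766 in cDKO plus IL-2 and at 83378 in cDKO without IL-2 replicate 1, with no peak in replicate 2. The lower ones were the Ccr6 region 7.27 kb upstream, which neither cDKO library with IL-2 listed at any rank, and a region 9.48 kb outside Cxcr5 (chromosome 9, 44501785 to 44502308), at 73186 and 71885 in cDKO plus IL-2 and 43843 and 50559 in cDKO without IL-2. In control cells 0 of 51 were higher and 1 lower (1.96%, against 3.38% and 3.55% of all regions). That one was the region 11.0 kb upstream of Cxcr4, which neither control library with IL-2 listed.

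With 1 of the 2 libraries left out the call loosens to 1 against 2, and most of these counts were higher. A looser rule can only keep or add calls at any locus. The share over all regions was not computed for it, so these counts are no result about the 7 genes. Without IL-2 the higher count was 8 without cDKO replicate 1, and the lower count 7 and 6 without control replicates 1 and 2. With IL-2 the counts were 2 to 5 higher, with 5 without cDKO replicate 1, 2 without cDKO replicate 2 and 4 without either control replicate, and 2 lower without either cDKO replicate and 4 without either control replicate. For IL-2 in cDKO, 7 were higher without replicate 1 of the libraries with IL-2 and 6 without replicate 1 of those without it, and 4 were lower without replicate 2 of those with IL-2 or replicate 1 of those without it. For IL-2 in control the higher count was 4 and 3 and the lower count 3 and 4 without replicate 1 and replicate 2 with IL-2, and the higher count was 5 and 1 and the lower count 3 and 2 without replicate 1 and replicate 2 lacking IL-2.

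Other genes of the chemokine system, from lists chosen with earlier results known, are given beside the shares over all regions, 1.05% higher and 1.66% lower in cDKO. Of 13 other receptors for chemokines and related guidance cues, 82 regions were in at least 4 lists, of which 3 (3.66%) were higher and 1 (1.22%) lower in cDKO. The higher ones lay within 20 kb of Ccr7, a receptor that brings naive T cells to lymph nodes, of S1pr1, which lets T cells leave lymph nodes, and of Ccr9, a gut-homing receptor, and the lower one near Gpr183, an oxysterol receptor. Ligand genes (13 of 14 matched) had 1 of 34 higher (2.94%), near Cxcl16, which encodes the ligand of Cxcr6, and 0 lower. The same region (chromosome 11, 70435566 to 70435784) is within 20 kb of Arrb2, which encodes a β-arrestin of receptor signalling and gave the 1 higher of 57 regions (1.75%) among signalling genes. The 7 genes of transcription factors tied to these receptors had 1 higher (2.08%) and 2 lower (4.17%) of 48, all near Stat5a or Stat5b. These counts are of 1 to 3 regions and carry no test. None of the 4 lists had a region called for IL-2. By region number, Ccr7 had more with IL-2 in every library, with 14 and 14 in cDKO plus IL-2 and 12 and 12 in control plus IL-2, against 11 and 11 in cDKO without IL-2 and 9 and 11 in control without IL-2. Cxcl13, which encodes the ligand of Cxcr5, had 0 in every cDKO library, against 2 and 2 in control plus IL-2 and 1 and 1 in control without IL-2. They are 1 of 13 receptor genes and 1 of 13 ligand genes. Over all genes, 0.723% had more regions with IL-2 in every library and 1.72% fewer in every cDKO library. The Cxcl13 difference rests on numbers of 0 to 2. Both genes are named after their values were seen.

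Likeness between genes was measured by Pearson's r over the 8 libraries of a summed score, the sum over a gene's peaks of 1 minus rank over list length. The 2 genes most like Ccr4 were Snx33 (r = 0.98) and Akr1c12 (0.969), those most like Ccr6 Gipc3 (0.97) and Mfsd12 (0.967), and those most like Ccr8 Tmed5 (0.977) and Pcdh8 (0.955). For Cxcr3 they were Alas1 (0.944) and Hsd17b3 (0.936), for Cxcr4 Ahrr (0.989) and Sectm1a (0.98), for Cxcr5 Poglut3 (0.976) and Timeless (0.975), and for Cxcr6 Slc25a29 and Tle1 (both 0.979). These are the highest of 18120 genes over 8 points that share libraries and list length, and are given as a description.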

How the data were processed

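The authors deposited 1 peak list per library, 8 in all, and started from reads not used here. Per the submitters' processing notes, the tools included MACS2 2.2.7.1, a peak caller, the aligner Bowtie2 2.4.1 and Trimmomatic 0.39, and also HOMER 4.11.1, SAMtools 1.3.1, Picard, ChIPseeker 1.18.0 and DiffBind 2.10.0. The notes name GRCm38 (mm10) and no role or order. Settings for calling peaks are not named there. Every deposited peak has a fold over background (a ratio), a −log10 p-value, a −log10 q-value and a score, all the authors' own. The largest q-value was 0.05, to rounding. These values served to describe and rank peaks within a list, and the score was not used. Read depth is unknown.

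Peaks were merged into regions at 1 bp of overlap. Gene bodies and promoters came from RefSeq tables of GRCm38.p6, and all 7 genes matched. The tables give no exons, so regions were not placed in exons, introns or untranslated parts. Presence in equal-number lists (65811 peaks) was compared between sides. Regions per gene were tested with exact 2-sided permutation tests over 70 relabellings, with Benjamini-Hochberg adjustment over 18120 protein-coding genes with a region within 20 kb (Python 3.11.15, numpy 2.4.6, pandas 2.3.3). The procedures were tested on simulated data. Named regions were the strongest and the start region of each gene and each called region, and others are said to be named for their values. The members, gene lists and rules were chosen with earlier results of these data known. Libraries of 1 group were distinct, with a Jaccard index of 0.713 to 0.796 between replicates. Alternatives were list length, window, coverage of the region, a replicate block and leaving out each library. A cell type marker of the fixed list is not reported here.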

Additional observations from a re-analysis of the deposited data

Results flagged for a closer look

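In 2 of the 33 regions listed in all 8 libraries (6.06%) the effect of at least 1 factor ran in opposite directions in the arms of the other. This held in every library, and the difference between arms was not tested. Such an order was found in 5.98% of all regions in all 8 lists, so the share at these genes is at the background.

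The region at the downstream start of Ccr6 (chromosome 17, 8242088 to 8242759, median rank 16644.5) was stronger with IL-2 in cDKO, at ranks 12708 and 16196 with IL-2 and 16773 and 16247 without, where the nearest ranks, 16196 and 16247, almost met. It was weaker with IL-2 in control, at 23765 and 24666 with IL-2 and 17690 and 16516 without. The region 7.51 kb upstream of the Ccr8 start (chromosome 9, 120084475 to 120084780, median rank 38915) was stronger in cDKO without IL-2, at 25491 and 36705 in cDKO and 47289 and 45242 in control. With IL-2 it was weaker in cDKO, at 48086 and 40883 in cDKO and 36116 and 36947 in control. By the same ranks, this Ccr8 region was weaker with IL-2 than without it in cDKO, and stronger with IL-2 in control.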

How the results depend on the processing

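Calls at the 7 genes rest on few regions. Shares over all regions and genes were given for the main setting only, so counts under other settings have no background beside them. Of the main counts under settings that keep all libraries, 50 stayed within 1.5 times and 32 did not, and the cause was not tested beyond what each setting removes. The 50 include the counts of the 7 genes passing an adjusted p of 0.05. Those were 0 throughout, under a correction that so few libraries could hardly pass, and say nothing of stability. N is the length of the equal-number lists. Ranges on leaving out libraries include lists of 92488 peaks without control plus IL-2 replicate 2, a setting chosen after seeing the data. In 4 against 4 libraries, regions higher in cDKO numbered 0 with N halved (32905), deposited lists, 10 kb windows (which leave the Cxcr4 region out) or 50% coverage. Regions lower in cDKO numbered 1, and regions lower with IL-2 1, with deposited lists or 50 kb windows. Leaving out libraries gave 1 to 3 higher and 0 to 1 lower in cDKO, and 0 to 1 higher and 0 to 1 lower with IL-2.
In 2 against 2 libraries, without IL-2, regions higher in cDKO numbered 1 with N halved and 2 with deposited lists (4 to 8 on leaving out libraries). Lower ones numbered 4 with deposited lists or 50 kb and 0 with 10 kb (1 to 7). With IL-2, higher ones numbered 2 with deposited lists or 50 kb and 0 with 10 kb (1 to 5), and lower ones 0 with N halved and 3 with 50 kb (1 to 4). With IL-2 in cDKO, higher ones numbered 1 with N halved or deposited lists and 6 with 50 kb (1 to 7), and lower ones 1 with N halved and 4 with 50 kb (2 to 4). With IL-2 in control, lower ones numbered 5 with deposited lists, 0 with 10 kb and 2 with 50 kb (1 to 4), and higher ones 0 to 6 on leaving out libraries.
Region numbers turned direction, with an adjusted p of 1 in each (exact permutation), as follows. The cDKO minus control difference became 2 for Ccr6 and 0.5 for Cxcr3 with deposited lists, -0.25 for Ccr8 with 50 kb and 0.25 for Cxcr5 with N halved. The IL-2 difference became -0.75 for Ccr4, -1.5 for Ccr6, -0.5 for Ccr8 and -2 for Cxcr3 with deposited lists, -0.25 for Ccr6 and Ccr8 with N halved, and 0.25 for Cxcr4 with 10 kb. On leaving out libraries the cDKO minus control difference was -1.75 to 0.417 for Ccr6, -0.667 to 1 for Cxcr3 and -0.0833 to 1.5 for Cxcr6, and the IL-2 difference -0.0833 to 1.25 for Ccr8 and -1 to 0.583 for Cxcr3. Genes with non-overlapping numbers were 1 for genotype with 50 kb, which was Cxcr6 (difference 2.5, exact permutation p = 0.0286, adjusted p = 0.63) (0 to 1 on leaving out libraries). For IL-2 they were 0 with N halved, deposited lists, 10 kb, 50 kb or 50% coverage (0 to 2). No gene passed an adjusted p of 0.05 in any setting, which with 0.0286 as the smallest p for 4 against 4 libraries says nothing of stability.
Whether replicate numbers mark pairs is not known. Deviations of same-numbered libraries correlated over genes at 0.276 between the control groups and 0.09 between the cDKO groups. Between genotypes they correlated at -0.163 to -0.041. Whether libraries of 1 genotype share animals was not tested. With the replicate block, 16 relabellings allow no p under 0.125, which Ccr4 reached for IL-2 (difference 1.5) and Cxcr6 for genotype (difference 1.25), and 0 of 7 genes passed (exact permutation).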
